A study of Homo sapiens with 2 samples.

Results

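The Hippo-YAP genes described here are 10 named regulators and targets of the Hippo pathway: YAP1, TEAD1, VGLL3, PTPN14, CRIM1, DLC1, FJX1, FAT1, AMOTL2 and LATS1. They were selected on their shCD133-minus-vector differences on these arrays, known from an earlier look at the same values, and every probe of these symbols with a value on both arrays was taken. The platform annotation gave them 15 probes, of which 11 had a value, out of 15205 named probes with a value in all. These 11 probes covered 9 of the 10 genes, out of 11579 named genes with a value. The pair of LATS1 probes, 1 of the 2 TEAD1 probes and 1 of the 2 DLC1 probes were null on both arrays, so LATS1 is without a value here.

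The arrays compared a shCD133 culture with a vector culture of Huh7, an established cell line from a human liver carcinoma. The shCD133 cells were infected with a lentivirus whose hairpin RNA targets CD133, and the vector cells with the lentiviral vector. Each condition had 1 array, and no time after infection, selection, clone or hairpin sequence is given in the sources used here. With no replicates there was no error between cultures and no test, so every difference describes these 2 arrays. A gene or probe was counted as different at a size of 2-fold, which is 1 on the log2 scale.

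Hippo signalling is a kinase cascade that restrains organ growth, and in the liver its loss leads to overgrowth and tumours. The kinases STK3 and STK4 activate LATS1 and LATS2, which phosphorylate the coactivators YAP (YAP1) and TAZ (WWTR1) and keep them out of the nucleus. Nuclear YAP and TAZ bind the TEAD transcription factors at target genes such as CCN1 and CCN2, and VGLL proteins are other cofactors that bind TEAD factors.

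TEAD factors bind a short DNA motif, GGAATG, which reads CATTCC on the opposite strand. The 250 bases before each annotated gene start were read from RefSeq (GRCh38.p14) and searched for these letters on both strands, with no other motif searched. Of the 10 genes, 7 had windows that were searched, 10 in all, and 3 windows held the motif, 1 each for YAP1, PTPN14 and AMOTL2. TEAD1, CRIM1 and DLC1 had no window searched. For the 10 genes, any window on the chromosome of DLC1 was left out, while the shares over all windows kept that chromosome. The motif was in 11.9% of all 35116 windows of this length, and in 10.1% of the 13569 windows of genes measured here. The windows below are those 3, with the motif in capitals, followed by the windows of VGLL3 and FJX1, which had the lowest and the highest difference among the 11 probes and hold no copy of these letters.
YAP1, chr11:102110197-102110446, plus strand: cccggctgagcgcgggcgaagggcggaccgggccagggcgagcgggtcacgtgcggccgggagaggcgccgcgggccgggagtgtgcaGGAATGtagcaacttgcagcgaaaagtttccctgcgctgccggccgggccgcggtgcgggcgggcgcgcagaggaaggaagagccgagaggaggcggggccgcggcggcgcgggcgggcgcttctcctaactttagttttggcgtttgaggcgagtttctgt
PTPN14, chr1:214551603-214551852, minus strand: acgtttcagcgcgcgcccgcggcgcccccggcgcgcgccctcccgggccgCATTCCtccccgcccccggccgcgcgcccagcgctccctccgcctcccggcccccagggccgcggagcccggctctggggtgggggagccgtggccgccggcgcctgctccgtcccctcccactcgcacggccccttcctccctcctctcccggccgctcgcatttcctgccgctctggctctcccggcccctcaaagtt
AMOTL2, chr3:134374448-134374697, minus strand: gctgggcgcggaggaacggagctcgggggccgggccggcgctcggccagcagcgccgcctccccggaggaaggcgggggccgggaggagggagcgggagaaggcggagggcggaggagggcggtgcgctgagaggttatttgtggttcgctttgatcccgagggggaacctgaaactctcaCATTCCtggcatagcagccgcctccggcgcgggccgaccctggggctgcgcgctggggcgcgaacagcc
VGLL3, chr3:86991150-86991399, minus strand: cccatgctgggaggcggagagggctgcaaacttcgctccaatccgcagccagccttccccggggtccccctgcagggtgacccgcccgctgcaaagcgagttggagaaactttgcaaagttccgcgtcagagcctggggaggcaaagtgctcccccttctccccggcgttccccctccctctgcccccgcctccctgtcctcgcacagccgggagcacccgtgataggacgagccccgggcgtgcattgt
FJX1, chr11:35618210-35618459, plus strand: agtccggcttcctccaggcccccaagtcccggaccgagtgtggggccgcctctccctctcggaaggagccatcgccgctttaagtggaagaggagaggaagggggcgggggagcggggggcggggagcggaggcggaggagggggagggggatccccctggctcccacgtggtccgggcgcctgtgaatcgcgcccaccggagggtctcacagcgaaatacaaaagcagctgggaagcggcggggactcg
The motif began 162 bases before the start in YAP1, 200 bases before it in PTPN14 and 69 bases before it in AMOTL2. A match in these letters is a description of the window and not evidence of binding. The 3 genes with the motif differed from each other on the arrays: the log2 difference was -0.88 for YAP1, -0.00105 for AMOTL2, and -2.05 and 0.12 for the PTPN14 probes.

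Values are the log2 intensities deposited by the authors, and each difference is shCD133 minus vector on that scale. Values were present for 41.6% of the 47323 probes in the table and ranged from 6.65 to 15.6. The arrays held nearly the same set of values, as after quantile normalization, and the median named gene differed by 0.11, so small differences are to be read against 0.11. The hairpin's target PROM1, which encodes CD133, was at 10.83 on the shCD133 array and 13.58 on the vector array, a difference of -2.75. Probes of 1 gene differed among themselves with an SD of 0.34 in the difference over 2907 genes, which is the spread between probes and not between cultures. Of 10 hepatocyte markers 9 had a value, with a median difference of 0.16 and 6 of them above 0. By the brightest probe 2 were lower by 2-fold or more, beside 8.26% of all named genes, and none was higher by as much. The lower ones were APOA2 with a difference of -1.81 and FGB with -1.32, and the other FGB probe differed by -0.71. ALB was at 15.47 and 15.48 and AFP at 15.10 and 14.96 on the shCD133 and vector arrays. Of 10 markers of fibroblasts, endothelium and blood cells, 5 had a value and none was 2-fold different. COL1A2, a fibroblast collagen gene, was at 12.50 on the shCD133 array and 11.55 on the vector array. Of the other fibroblast genes listed, COL1A1 was at 8.52 and 7.77 and PDGFRB at 7.25 and 7.22 on the shCD133 and vector arrays, and THY1 had no value. The part of such markers in the results below was not tested.

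Of the 11 probes, 6 were at least 2-fold lower with shCD133 and 1 was at least 2-fold higher. Over all named probes, 7.65% were lower by 2-fold or more and 1.96% higher by as much, and nothing is read from the comparison because these differences were known when the genes were chosen. The 6 lower probes belonged to VGLL3, FAT1 (2 probes), PTPN14, DLC1 and CRIM1, and the higher one to FJX1. YAP1, TEAD1, AMOTL2 and the other PTPN14 probe lay between the thresholds. The median difference of the 11 probes was -1.29, beside 0.11 over all named probes.

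**Figure D1:**
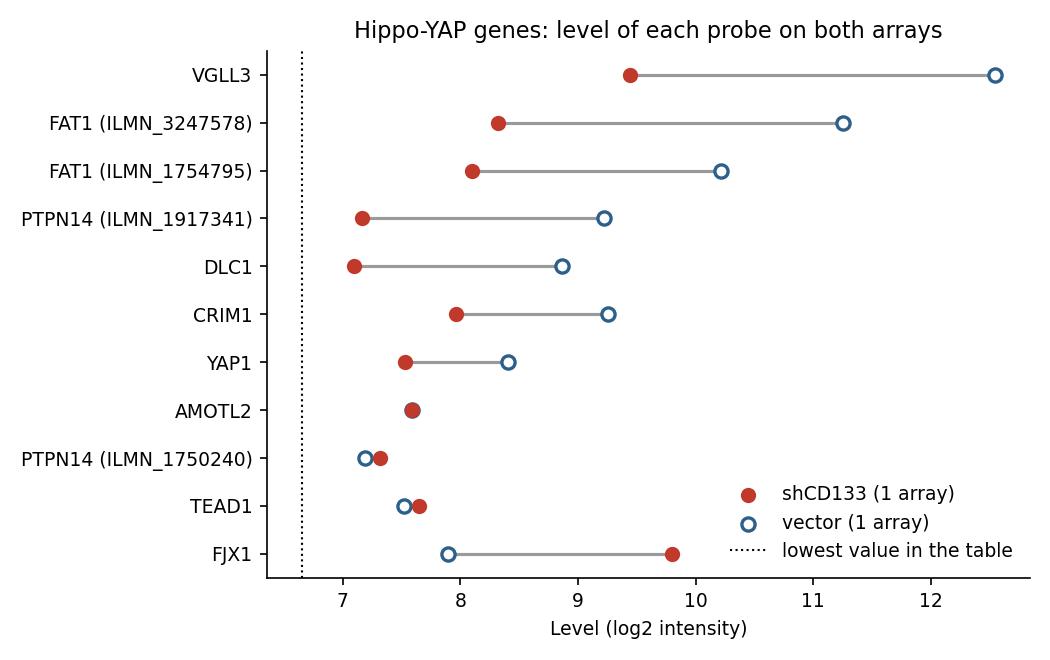
Level of each of the 11 probes on the log2 intensity scale, with filled points for the shCD133 array and open points for the vector array, ordered by difference; the dotted line is the lowest value in the table (6.65). VGLL3 and both FAT1 probes show the widest gaps with the shCD133 point on the left, FJX1 alone shows a wide gap with it on the right, and levels of different probes are not comparable with each other.

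The coactivator and its DNA-binding partner were measured by dim probes. YAP1 (probe ILMN_1709479, transcript NM_006106) had a log2 level of 7.52 on the shCD133 array and 8.40 on the vector array. The difference of -0.88 was 1.84-fold lower, short of the 2-fold size, and ranked 1443 from the lowest among the named probes. The YAP1 level with shCD133 stood 0.87 above the lowest value in the table, and no background subtraction is visible in these values. After background correction the YAP1 difference was -1.22, past the 2-fold size. That correction widened differences in general: 11% of all named genes were then lower and 3.9% higher by 2-fold or more, against 8.26% and 2.08% without it. The YAP1 difference was -0.98 after centring, and -0.95 and -0.70 with the trend on level or on gene length removed, each short of 2-fold. TEAD1, a transcription factor through which YAP acts, had a level of 7.65 with shCD133 and 7.52 with the vector on its measured probe. That difference of 0.13 was close to the 0.11 of the median named gene. The TEAD1 level with the vector stood 0.87 above the lowest value in the table, which left no room for a 2-fold decrease.

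VGLL3, a vestigial-like cofactor that binds TEAD factors, had the largest difference of the 11 probes. Its probe (ILMN_1714586, transcript NM_016206) had a log2 level of 9.44 on the shCD133 array and 12.55 on the vector array, which are unlogged intensities of 695 and 5989. The difference was -3.11, or 8.62-fold lower, and ranked 5 from the lowest among the 15205 named probes. Neither VGLL3 level was near the lower end of the scale. The difference stayed between -3.25 and -3.08 after centring, background correction and removal of the trend with level or with gene length. VGLL3 was measured by 1 probe, so no second probe bears on it.

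FAT1, a giant cadherin that acts upstream of the pathway, was lower on both of its probes. The probe ILMN_3247578 had a log2 level of 8.32 with shCD133 and 11.25 with the vector, a difference of -2.93 (7.64-fold lower). The probe ILMN_1754795 had 8.10 with shCD133 and 10.22 with the vector, a difference of -2.12 (4.33-fold lower). Both are assigned to transcript NM_005245. They agreed in direction and differed in size by 0.82, and a range between probes at least that wide was found in 9.87% of the 2907 genes with more than 1 probe.

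FJX1 was the only one of the 9 measured genes that was at least 2-fold higher. It is the human relative of Drosophila four-jointed, a Golgi kinase that in the fly phosphorylates the Fat and Dachsous cadherins, and it is also listed among YAP targets. Its probe (ILMN_1746465, transcript NM_014344) had a log2 level of 9.80 on the shCD133 array and 7.90 on the vector array. The difference was 1.90, or 3.74-fold higher, and ranked 16 from the highest among the named probes. FJX1 was thus higher where FAT1 was lower.

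PTPN14 and AMOTL2 encode proteins that bind YAP and hold it outside the nucleus, and both genes are also YAP targets. The PTPN14 probe ILMN_1917341 had a log2 level of 7.17 with shCD133 and 9.22 with the vector, a difference of -2.05. The PTPN14 probe ILMN_1750240 had 7.31 with shCD133 and 7.19 with the vector, a difference of 0.12. These probes give no common direction for the gene. The first is assigned to the cDNA clone AK056963, which is not among the gene's RefSeq transcripts, and the second to transcript NM_005401, which is. The first probe stood 0.52 above the lowest value with shCD133, and its difference was -2.80 after background correction. The second probe stood 0.66 above the lowest value with shCD133 and 0.54 above it with the vector. The mean over both PTPN14 probes was -0.96, short of the 2-fold size. AMOTL2 (probe ILMN_1778788, transcript NM_016201) was at 7.59 on both arrays, with a difference of -0.00105, or -0.11 relative to the median named probe. This level stood 0.94 above the lowest value, so the AMOTL2 probe was dim on both arrays, with no room for a 2-fold decrease.

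CRIM1 and DLC1, which are listed among YAP targets, were both lower. CRIM1 encodes a transmembrane protein that binds bone morphogenetic proteins. Its probe (ILMN_2146418, transcript NM_016441) had a log2 level of 7.97 with shCD133 and 9.25 with the vector, a difference of -1.29, or 2.44-fold lower. DLC1 is known as a tumour suppressor in liver cancer. Its measured probe (ILMN_1698020, transcript NM_024767) had 7.09 with shCD133 and 8.86 with the vector, a difference of -1.77. The DLC1 level with shCD133 stood 0.44 above the lowest value, and after background correction the difference was -2.53. The other DLC1 probe, assigned to transcript NM_006094, was null.

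**Figure D2:**
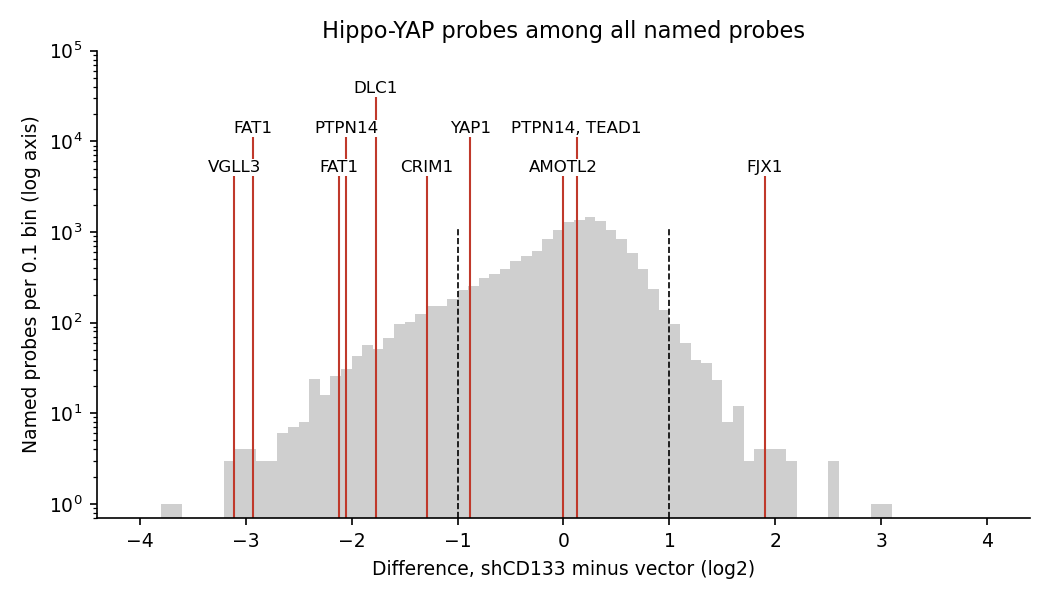
Histogram of the log2 difference, shCD133 minus vector, over all 15205 named probes (bars, number of probes on a log axis), with red lines at the 11 Hippo-YAP probes and dashed lines at the 2-fold size. VGLL3 (-3.11) and a FAT1 probe (-2.93) lie in the far lower tail, FJX1 (1.90) in the upper tail, and AMOTL2, TEAD1 and the other PTPN14 probe near the centre.

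The wider pathway was described with 4 lists of Hippo regulators and cofactors and 1 list of YAP/TAZ target genes, each gene by its brightest probe. Among all named genes so measured, 8.26% were lower by 2-fold or more and 2.08% higher by as much. Of 53 genes in the 4 regulator lists 39 had a value, of which 9 were lower and 2 higher by 2-fold or more. PTPN14 counted as lower by its brightest probe alone, and with the mean over probes 8 regulators were lower. Without the 10 genes described above, 32 of these regulators had a value, of which 6 were lower and 1 was higher, with a median difference of 0.23.

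The kinase cassette and its activators had a median difference of -0.40 over 12 measured genes. STK4 had a log2 level of 10.66 with shCD133 and 12.04 with the vector, a difference of -1.38. TAOK1, a kinase that activates STK3 and STK4, had 7.95 and 9.70 on the shCD133 and vector arrays, a difference of -1.76. MAP4K4, which can phosphorylate LATS kinases, differed by -1.56 on its brighter probe and by -1.49 on the other. No gene of this list was 2-fold higher. STK3, LATS2 and NF2 lay between the thresholds with differences of -0.37, -0.48 and 0.13, and SAV1 had no value.

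Cadherins and polarity proteins had a median difference of 0.05 over 11 genes, with 2 lower and 2 higher. Beside FAT1 and FJX1, DCHS1, a cadherin that binds FAT4, had a log2 level of 8.23 with shCD133 and 7.08 with the vector, a difference of 1.15. The lowest value in the table is 6.65, so the DCHS1 level with the vector was dim. PALS1, a scaffold of the Crumbs polarity complex, differed by -1.03, just past the 2-fold size. Among 9 measured genes that bind YAP or restrain it or LATS, 3 were lower: TJP1, BTRC and PTPN14, the last by its brightest probe alone. TJP1, the tight junction protein ZO-1, had 8.92 with shCD133 and 10.98 with the vector (-2.07), and its other probe differed by -1.98. BTRC, the substrate adaptor of a ubiquitin ligase that marks phosphorylated YAP, differed by -1.39. The BTRC level was 7.06 with shCD133, also near the lowest value, and 8.45 with the vector. AMOT differed by 0.10, and AMOTL1 had no value.

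The other TEAD and VGLL genes lay between the thresholds and above 0. The differences were 0.42 for TEAD2, 0.35 for TEAD3, 0.33 for TEAD4 and 0.38 for VGLL4. TEAD2 had a log2 level of 12.69 with shCD133 and 12.27 with the vector. WWTR1, which encodes TAZ, had no value. Within this list of 7 measured genes, VGLL3 was thus the only one at least 2-fold different.

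Of 23 YAP/TAZ target genes 21 had a value, of which 5 were lower and 1 was higher by 2-fold or more, with a median difference of -0.28. This list holds 5 of the genes described above: PTPN14, DLC1, CRIM1, AMOTL2 and FJX1. The 16 others had 2 lower genes, none higher, and a median of -0.26. MYOF, a membrane-repair protein, had a log2 level of 9.65 with shCD133 and 12.63 with the vector on its brightest probe, and its 3 probes differed by -3.07 to -2.88. ASAP1, an Arf GTPase-activating protein of focal adhesions, had 9.64 with shCD133 and 11.80 with the vector, a difference of -2.16, and its 3 probes ranged from -2.16 to -1.39.

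Widely used YAP/TAZ readout genes lay between the thresholds. CCN2 had a log2 level of 12.28 with shCD133 and 12.38 with the vector, a difference of -0.09, and its other probe differed by -0.11. CCN1 had 13.17 with shCD133 and 13.74 with the vector, a difference of -0.56. ANKRD1 had 8.47 with shCD133 and 7.98 with the vector, a difference of 0.49. AXL was dim, at 7.35 with shCD133 and 7.63 with the vector, where the lowest value in the table is 6.65. It differed by -0.28, and its other probe by -0.40. The 5 lower genes of the list were DLC1, CRIM1, MYOF, ASAP1 and PTPN14, the last by its brightest probe alone, and with the mean over probes 4 were lower.

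**Figure D3:**
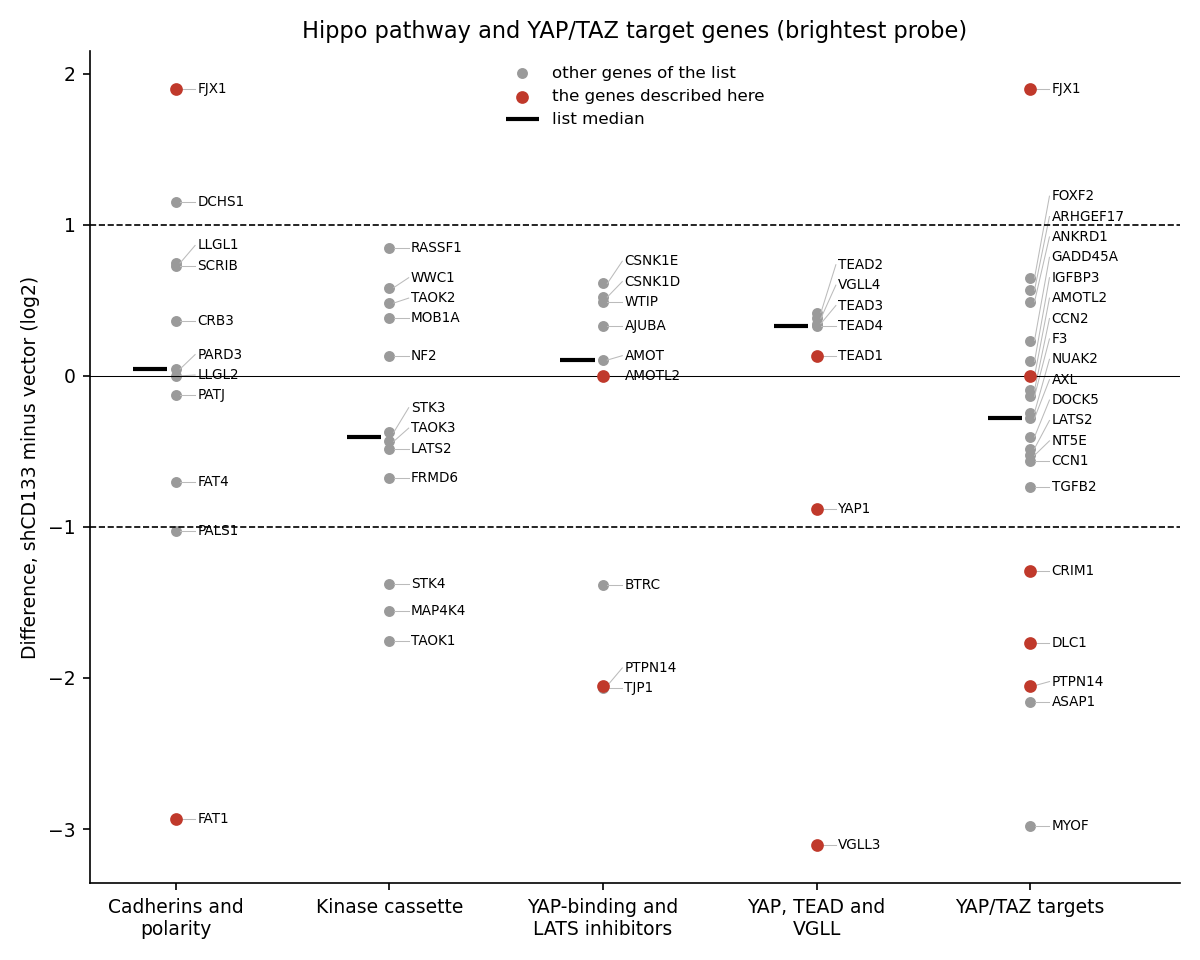
Log2 difference, shCD133 minus vector, of each measured gene (brightest probe) in 4 lists of Hippo regulators and the list of YAP/TAZ targets, with red points for the Hippo-YAP genes described here, black bars for list medians and dashed lines at the 2-fold size. Of 39 regulators 9 lie at or under the lower line and 2 over the upper one, and of 21 targets 5 and 1; genes in more than 1 list appear in each.

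Gene length moved with these differences. The genomic length in RefSeq (GRCh38.p14) was 2.41 kb for FJX1 and 20.1 kb for AMOTL2, both under the median named gene (27.5 kb). The other 7 measured genes were longer: VGLL3 at 53.2 kb, YAP1 at 123 kb, FAT1 at 139 kb, CRIM1 at 195 kb, PTPN14 at 203 kb, TEAD1 at 270 kb and DLC1 at 521 kb. Named genes were placed in 10 bins of like size by length. In the bin of FJX1, the shortest, 1.47% were lower and 5.1% higher by 2-fold or more. In the bin of CRIM1, PTPN14, TEAD1 and DLC1, the longest, 22% were lower and 0.605% higher. VGLL3 stood in a bin with 10.2% lower genes, and YAP1 and FAT1 in one with 17.8%.

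The same held across the lists. Over all named genes, 13.7% of those longer than the median were lower by 2-fold or more, beside 2.83% of the others. All 5 lower target genes were among the 11 targets longer than the median named gene, and none was among the 10 shorter ones. The 9 lower regulators were among 27 longer ones, and none was among 12 shorter ones, while 1 of the 2 higher regulators, DCHS1, was among the longer and the other, FJX1, among the shorter. With the trend on length removed the differences were -3.08 for VGLL3, -2.74 and -1.92 for the FAT1 probes, -1.53 for DLC1, -1.06 for CRIM1, 1.61 for FJX1 and -0.70 for YAP1. On the same scale TEAD1 differed by 0.37, AMOTL2 by -0.17, and the PTPN14 probes by -1.82 and 0.35. The part of gene length in these differences was not tested beyond that.

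**Figure D4:**
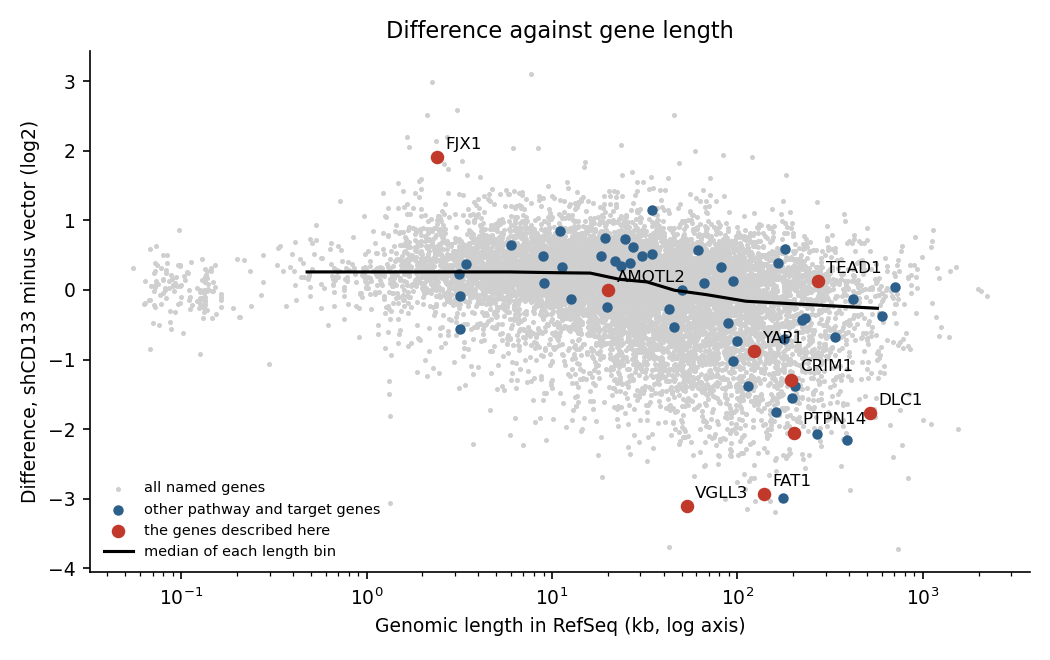
Log2 difference, shCD133 minus vector, against genomic length in kb (log axis) for all named genes (grey), the other pathway and target genes (blue) and the 9 measured Hippo-YAP genes (red), with a line through the medians of 10 length bins. The bin medians decline with length, FJX1 (2.41 kb) lies above the line, and VGLL3, FAT1, PTPN14, DLC1 and CRIM1 lie below it.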

How the data were processed

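Total RNA of each culture was amplified into biotin-labelled cRNA and read on an Illumina bead array, per the labels' protocols. The values are log2 intensities as deposited by the authors; base 2 was read from their range (unlogged, 100.5 to 49870). GenomeStudio 2011.1 is named in the submitters' processing notes. No source used here says how values were normalized or why some entries are null. Both columns, once sorted, differed by at most 0.00044 at any rank, as after quantile normalization. A table with 4 columns of non-normalized signals and detection p-values was not used, because its column names match neither sample, so no detection call was available. Precision is limited by the number of arrays.

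Probes with 1 symbol in the 2016 platform annotation were named, with symbols updated by gene identifier through RefSeq (15197 of 15205 matched); 4458 probes had no symbol and 2 had several. A gene took its probe with the highest mean. The named genes were the 10 members with every probe, PROM1, every gene of the pathway and target lists at least 2-fold different, and 16 pathway genes fixed by name where measured. Members and lists were chosen with earlier results of these data known. ALB, AFP, APOA2, FGB, COL1A2, COL1A1, PDGFRB and THY1 were named after the results were seen. Alternatives were a 1.5-fold size, centring, normexp background correction (limma 3.58.1, offset 50), removal of lowess trends on level or gene length (statsmodels 0.14.6, span 0.3), a level of at least 8 on the brighter array, and the mean over probes.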

Additional observations from a re-analysis of the deposited data

How the results depend on the processing

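All alternatives below were planned. The count of the 11 probes at least 2-fold lower was 6, and it was 4 to 7 over the 7 alternatives: YAP1 joined with a 1.5-fold size and with background correction, and PTPN14 dropped out and FAT1 counted once with the mean over probes. The count at least 2-fold higher was 1 in each. The median difference of the 11 probes was -1.29. It was -1.91 with probes under a level of 8 on the brighter array left out, which removed 3 probes near 0. A probe that is dim on 1 array passes that filter through its level on the other, as DLC1 and YAP1 did. Nothing is therefore read from results under this filter. The median lay between -1.58 and -0.96 in the other alternatives. Higher YAP/TAZ targets numbered 2 at a 1.5-fold size, against 1 at 2-fold, and higher regulators 6, against 2. At the 1.5-fold size 12.3% of all named genes were higher and 16.3% lower, against 2.08% and 8.26% at 2-fold. Lower targets numbered 4 to 6 and lower regulators 8 to 12 over the alternatives. Of 44 member differences recomputed, none that was 2-fold changed sign. Nothing is read from this, because these alternatives could hardly reverse such a difference. Centring moved each by 0.11, background correction treated both arrays nearly alike, and the trends removed were far smaller than 2-fold. With background correction DLC1 differed by -2.53, PTPN14 (ILMN_1917341) by -2.80 and FJX1 by 2.27, each by more than the probe SD. With 1 array per condition no replicate could be left out. No paired analysis was possible because each condition has 1 array.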

Other observations

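The PTPN14 probes lay 2.18 apart, with differences of -2.05 for ILMN_1917341 and 0.12 for ILMN_1750240. Of 2907 genes with more than 1 probe, 15 (0.516%) had probes at least that far apart, and the median range was 0.23. Those 2907 genes were taken whatever their difference, while PTPN14 was selected on its difference, so nothing is read from the 0.516%. On the vector array ILMN_1750240 stood 0.54 above the lowest value, which left no room for a 2-fold decrease. Of 384 genes with a probe at least 2-fold lower and more than 1 probe, 63 (16.4%) had another probe above 0. For VGLL3, DLC1, CRIM1, FJX1 and YAP1, each with 1 measured probe, there is no second probe to compare.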
